A study of Mus musculus with 6 samples.

Results

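The MYC, MAX and MXD network was followed here through its 10 genes, Myc, Mycn, Mycl, Max, Mxd1, Mxd3, Mxd4, Mxi1, Mnt and Mga, which were found by symbol among the 40808 gene IDs of the deposited spleen count table. The genes were listed by function, with earlier results of these data known. The table holds 6 libraries of mRNA 3′ ends from mouse spleen. According to the labels, the RNA came from leukaemia cells in the spleens of mice that had received bone marrow, 3 libraries carry the treatment label no (replicates 4, 5 and 6) and 3 the label Dox (replicates 10, 11 and 12). The labels leave Dox unexplained and give no dose, duration, donor genotype, transgene, strain, age or sex, nor whether each library is a separate mouse, so p-values measure the spread between these libraries only.

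MYC proteins activate transcription after pairing with MAX through their basic helix-loop-helix leucine zipper regions, and the pair binds a short DNA sequence called the E-box, CACGTG. MXD proteins (MXD1, MXD3, MXD4 and MXI1) and MNT compete for MAX and the same sequence, and they recruit the SIN3 corepressor with its histone deacetylases. MGA also pairs with MAX and belongs to a Polycomb complex. In T cell leukaemia driven by NOTCH, Myc is a well-known direct target of the receptor, and resting or maturing cells generally carry less MYC and more of the MXD proteins.

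The E-box is shown in the promoters of the network's own genes because it is the sequence for which MYC and MXD proteins compete. RefSeq promoter windows on GRCm38.p6, from 250 bases before to 50 after an annotated start, were found for 9 of the 10 genes, all but Myc. CACGTG reads the same on both strands, and it was present in the windows of 3 of these 9 genes, Max, Mxd4 and Mnt. Each stretch below reads 5′ to 3′ on the gene's strand, with the E-box in capitals.
Max, chr12:76962246-76962311, minus strand: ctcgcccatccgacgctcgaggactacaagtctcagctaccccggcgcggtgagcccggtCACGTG
Mxd4, chr5:34187864-34187960, minus strand: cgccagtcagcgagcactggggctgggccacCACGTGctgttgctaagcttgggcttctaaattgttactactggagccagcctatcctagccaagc
Mnt, chr11:74830741-74830866, plus strand: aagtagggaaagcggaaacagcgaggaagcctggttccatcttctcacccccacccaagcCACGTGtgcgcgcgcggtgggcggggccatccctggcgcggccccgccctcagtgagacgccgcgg
The first base of the match lay 3 bases before the annotated start of the window in Max, 219 before it in Mxd4 and 123 before it in Mnt. In Max and Mnt the start used for the window lies inside the gene coordinates given below. The sequence was present in 7.15% of all 32851 windows and, by gene, in 8.09% of all 27025 genes with a window. By gene, 12 of the 44 MYC-activated target genes with a window held it (27.3%), beside 11.3% of the tested genes with a window. A match describes the letters only, and no binding was measured.

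Total counts ran from 5541486 to 8725767 per library, and a count of 3 was worth 0.34 to 0.54 CPM (the count divided by the library total, in a common unit). The spread between libraries was wider with Dox, with a common biological coefficient of variation of 0.515 against 0.19 without Dox. Of 14110 genes tested with edgeR, 45.6% passed an adjusted p-value of 0.05, 23.6% higher and 22.1% lower with Dox, and 59.6% had groups that did not overlap. Together, 4 genes of the Y chromosome had 545 to 801 counts without Dox, against 0 with Dox in every library. Xist had 193 to 324 counts without Dox and 3347 to 5669 with Dox, so Y-linked genes and Xist were both counted without Dox. Any effect of Dox, of sex and of the mix of donor and host cells therefore cannot be told apart.

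Myc and Max fell and Mxi1 and Mga rose with Dox. These were 4 of the 8 network genes abundant enough to be tested, 50% beside 45.6% of all tested genes, so the share that changed was near the background. The other 4 tested genes, Mxd1, Mxd3, Mxd4 and Mnt, did not pass the threshold. Mycn and Mycl had too few counts for the test. The number that rose was 1 without replicate 4, 6 or 10, and 0 without replicate 5. Non-overlapping groups were found for 6 of the 8, beside 59.6% of all tested genes. In bulk RNA, fewer cells of a type and less RNA per cell cannot be told apart.

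**Figure D1:**
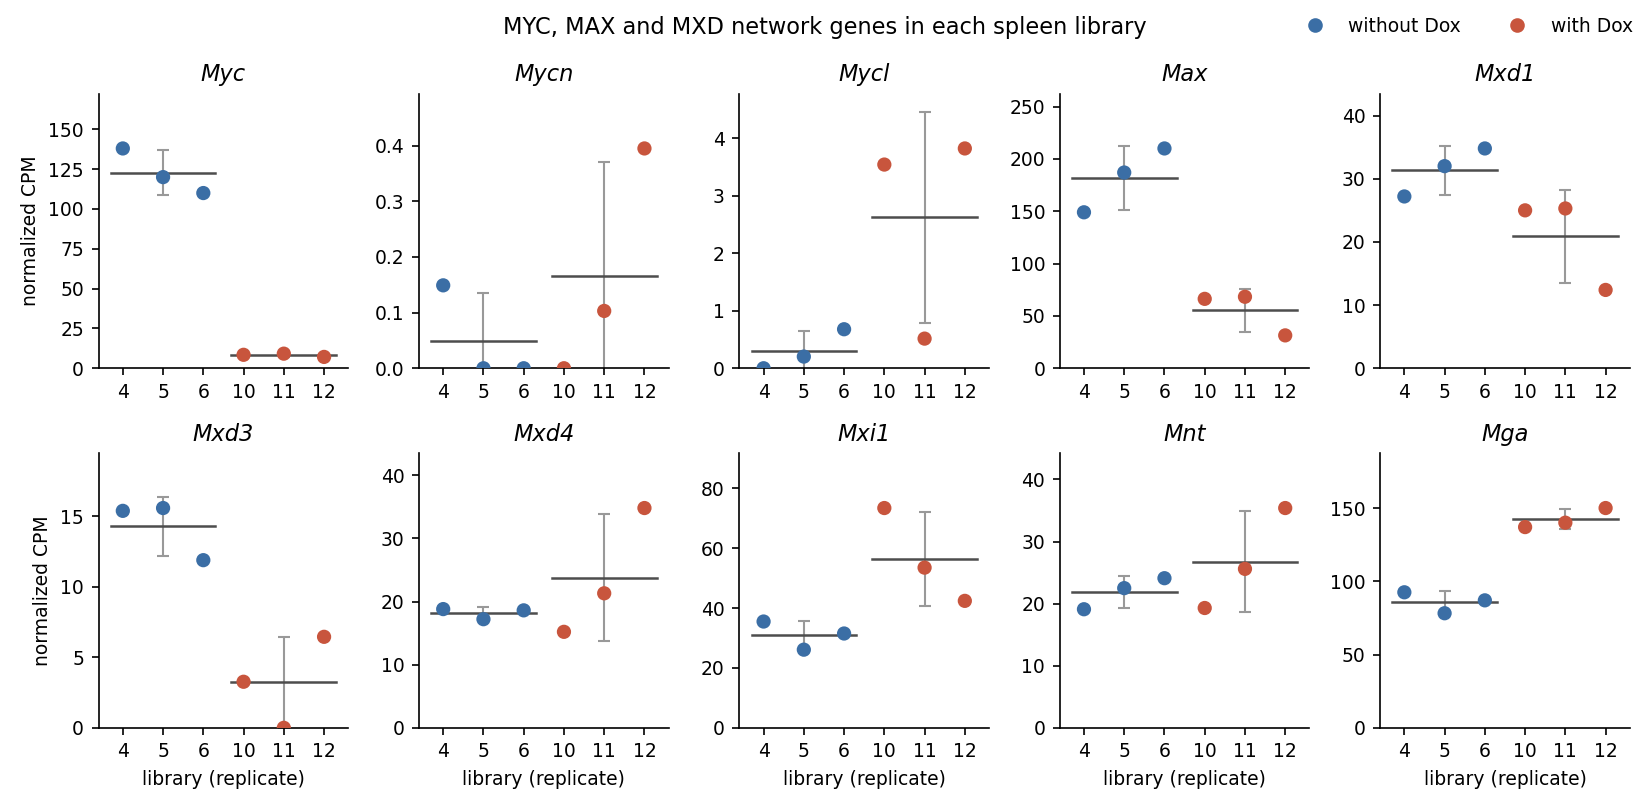
Normalized CPM (counts scaled to a common total after TMM scaling, linear axes from 0, a separate scale for each gene) of the 10 network genes in each library, with group means as horizontal lines and SD as error bars (n = 3 per group). Myc sits at 110 to 138 without Dox and at 7.12 to 9.16 with Dox, whereas the groups of Mxd4 and Mnt overlap.

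Myc (Entrez gene 17869, chr15:61985341-61990361, plus strand) encodes the MYC protein of most dividing cells. Its normalized CPM was 138, 120 and 110 in replicates 4, 5 and 6 without Dox and 8.44, 9.16 and 7.12 in replicates 10, 11 and 12 with Dox. All libraries with Dox lay far below all those without it, and the spread within each group was small, with coefficients of variation of 11.6% and 12.6%. The fall was 14.8-fold (edgeR log2 fold change -3.89 ± 0.21 SE, adjusted p = 1.87e-06). In edgeR it was the largest log2 fold change of the 8 tested network genes, whereas limma-voom gave -3.88 for Myc and -4.17 for Mxd3. Over 16 alternative fits the log2 fold change of Myc ran from -4.05 to -3.58.

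The 3 genes whose pattern over the 6 libraries was nearest to that of Myc, among 7054 of at least median abundance, were Gm15421, a predicted gene, Camk4, a calcium-dependent kinase, and Cd3g, a chain of the T cell receptor complex. Likeness was the root mean square difference of centred log2 CPM, which was 0.131, 0.133 and 0.144 for the 3 genes. Cd3g went from 149 to 170 CPM without Dox to between 8.98 and 13 CPM with Dox. Pvt1, the long non-coding RNA gene that neighbours Myc, did not pass the threshold. It was at 4.78, 2.84 and 7.97 CPM without Dox, against 2.86, 4.32 and 4.09 CPM with Dox, so its groups overlapped (log2 fold change -0.47 ± 0.63 SE, edgeR adjusted p = 0.575).

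The other MYC genes had far fewer counts than Myc without Dox. Mycl (Entrez gene 16918, chr4:122995588-123002490), a relative of Myc known from dendritic cells and lung cancer, had 0, 1 and 4 counts without Dox, against 26, 5 and 29 counts with Dox. Replicate 11 with Dox was close to the libraries without Dox, and in CPM the groups overlapped. In a fit with no filter on low counts its log2 fold change was 3.0 ± 1.76 (SE) with an edgeR adjusted p of 0.244. With the usual filter and replicate 11 with Dox left out, Mycl entered the test through its 26 and 29 counts in the other Dox libraries. Its log2 fold change was then 3.56, with an edgeR adjusted p of 0.0436. That value rests on leaving out the Dox library with the fewest Mycl counts, so it is no separate support for a rise. Mycn (Entrez gene 18109, chr12:12936093-12941836), the MYC gene of the developing nervous system, had 1 count in all without Dox, against 4 with Dox. Bmyc, a short MYC-family gene of the mouse, was at 3.9 to 6.69 CPM without Dox and 7.12 to 16.7 CPM with Dox. The groups did not overlap, but the adjusted p stayed above 0.05 (log2 fold change 1.17 ± 0.47 SE, edgeR adjusted p = 0.0658), although Bmyc passed in 6 of 16 alternative fits. One was without replicate 12 (1.42 on the log2 scale, adjusted p = 0.0209), and the other 5, with other scalings, a stricter count filter, group weights or a length trend removed, had adjusted p-values of 0.0249 to 0.0493. Mycs, an intronless copy, had 0 counts in every library.

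Max (Entrez gene 17187, chr12:76937269-76962323, minus strand) encodes the partner that MYC, MXD, MNT and MGA share. Its CPM was 149, 187 and 210 without Dox, against 66.3, 68.3 and 31.4 with Dox. Every library with Dox was below every library without it, with replicate 12 the lowest. The fall was 3.29-fold (log2 fold change -1.72 ± 0.29 SE, edgeR adjusted p = 9.32e-04), and it remained past the threshold in all 16 alternative fits, with a largest adjusted p of 0.00661. Without replicate 12 the log2 fold change was -1.45.

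Among the repressors, Mxi1 (Entrez gene 17859, chr19:53310128-53373293, plus strand) rose. Its CPM was 35.5, 26.1 and 31.5 without Dox, against 73.4, 53.5 and 42.4 with Dox. The groups did not overlap, although the lowest library with Dox, replicate 12, was near the highest without it, replicate 4. The rise was 1.81-fold (log2 fold change 0.86 ± 0.25 SE, edgeR adjusted p = 0.0188). The call was lost without replicates 4, 5 or 6 of the group without Dox (adjusted p = 0.0526, 0.134 and 0.101) and without replicate 10 of the group with Dox (0.0776). The nearest patterns to Mxi1 were those of Cyhr1, Rexo1 and Ube2o, with root mean square differences of 0.08, 0.121 and 0.133 on the log2 scale, and in each of these replicate 10 was also the highest library. Mxi1 shares 194 exonic bases with Gm10197 on the opposite strand in the GENCODE annotation, and the strand setting of the counting is not given in the sources used here.

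Mga (Entrez gene 29808, chr2:119872503-119970129, plus strand) encodes a large protein with a T-box besides its MAX-pairing region. Its CPM was 92.5, 78.2 and 87.0 without Dox, against 137, 140 and 150 with Dox. The Dox libraries lay within 1.09-fold of each other, the tightest Dox group among the network genes. The rise was 1.66-fold (log2 fold change 0.73 ± 0.16 SE, edgeR adjusted p = 0.0042). Without replicate 5 of the group without Dox it was 0.60 on the log2 scale with an adjusted p of 0.0648.

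Mxd3 (Entrez gene 17121, chr13:55325170-55329900, minus strand), the MXD gene linked to dividing cells, was at 15.4, 15.6 and 11.9 CPM without Dox, against 3.27, 0 and 6.46 CPM with Dox. The groups did not overlap, but the Dox libraries ranged from 0 to 49 counts, and the adjusted p stayed above 0.05 (log2 fold change -2.15, 95% confidence interval -4.29 to -0.01, edgeR adjusted p = 0.0931). Without replicate 11 with Dox, the library at 0, the log2 fold change was -1.57 with an adjusted p of 0.0191, and without replicate 12 it was -3.20 with an adjusted p of 0.0251. The 3′ end of Mxd3 shares 105 exonic bases with Prelid1 on the opposite strand in the GENCODE annotation. With the strand setting unknown, reads in that stretch could belong to either gene.

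Mxd1 (Entrez gene 17119, chr6:86647044-86669234, minus strand), known for its induction as myeloid cells mature, was at 27.2, 32.0 and 34.8 CPM without Dox, against 25, 25.3 and 12.4 CPM with Dox. Replicate 12 was again the lowest. The log2 fold change was -0.58 (95% confidence interval -1.28 to 0.12, edgeR adjusted p = 0.159). Mxd4 (Entrez gene 17122, chr5:34176580-34187710, minus strand), an MXD gene of differentiated cells, was at 18.8, 17.2 and 18.6 CPM without Dox, against 15.2, 21.3 and 34.8 CPM with Dox. Its groups overlapped (log2 fold change 0.38, 95% confidence interval -0.36 to 1.13, edgeR adjusted p = 0.379), and without replicate 12 the log2 fold change was -0.01. The GENCODE model of Mxd4 extends beyond these RefSeq coordinates at the 3′ end, and there it shares 514 exonic bases with the antisense gene Gm42846.

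Mnt (Entrez gene 17428, chr11:74830806-74845725, plus strand), the broadly expressed MAX partner, was at 19.1, 22.5 and 24.1 CPM without Dox, against 19.3, 25.6 and 35.4 CPM with Dox. Its groups overlapped as well (log2 fold change 0.29, 95% confidence interval -0.35 to 0.94, edgeR adjusted p = 0.439). The intervals of Mxd1, Mxd4 and Mnt include both no change and changes of about the size seen for Mxi1, in the direction of each estimate. Replicate 12 was the lowest Dox library for Myc, Max, Mxd1 and Mxi1 and the highest for Mxd3, Mxd4, Mnt and Mga.

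**Figure D2:**
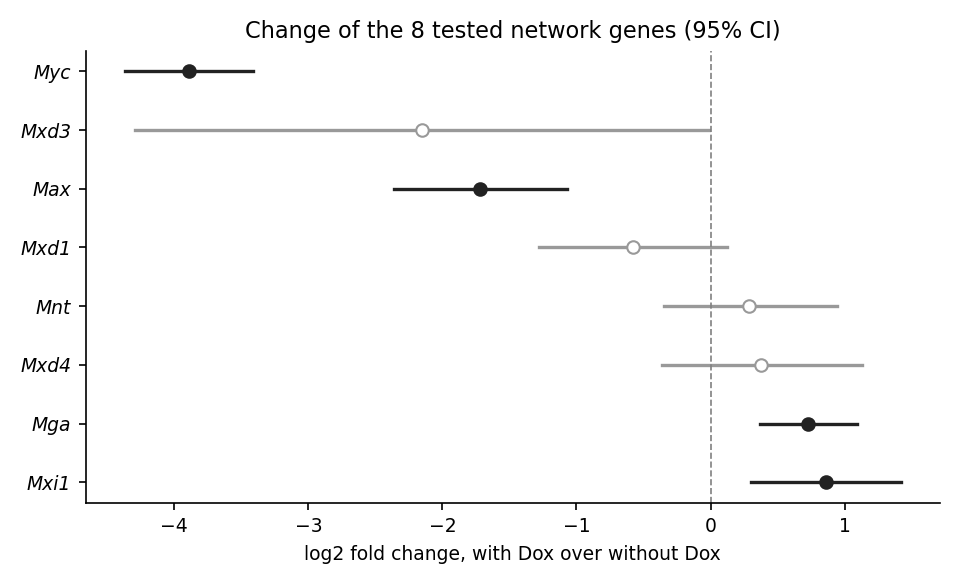
Log2 fold change with Dox over without Dox (horizontal axis) of the 8 tested network genes, as edgeR estimates with 95% confidence intervals, filled where the adjusted p was under 0.05. Myc and Max lie left of 0 and Mga and Mxi1 right of it, and the interval of Mxd3 is the widest, from -4.29 to -0.01.

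Counts of the 10 genes were then divided within each library, which makes the result independent of how libraries are scaled to each other. Libraries of 3′ ends count about 1 fragment per transcript, so counts were not divided by transcript length. The 10 genes together had 3324, 2462 and 3117 counts without Dox, against 2585, 3345 and 2460 counts with Dox. The MYC genes took 27.9%, 24.0% and 21% of these counts without Dox and 3.40%, 2.84% and 3.50% with Dox. With Dox, Mycl made up 1.01%, 0.149% and 1.18% of the network's counts within that share. The groups were far apart, at 24.3% ± 3.45 and 3.25% ± 0.355 (SD over 3 libraries each), and a two-sided exact permutation test gave p = 0.1, the smallest that 3 against 3 can give.

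MAX went from 35.8% ± 5.03 to 16.1% ± 5.61 of the network's counts, and MXD with MNT went from 23.0% ± 0.333 to 38.6% ± 2.02 (SD over 3 libraries each; p = 0.1 for either in the exact permutation test). MGA took 16.9% ± 1.54 without Dox and 42.0% ± 3.77 with Dox (SD over 3 libraries each; p = 0.1 in the exact permutation test). In each of these 4 divisions the groups did not overlap. The share depends on all its parts, and the summed normalized CPM of the MXD genes and Mnt differed far less, at 117 ± 3.76 without Dox and 131 ± 5.24 with Dox (SD over 3 libraries each). Within the repressors, Mxi1 by itself went from 6.12% to 16.5% of network counts, while Mxd1 had 6.16% and 6.10% and overlapping groups. Mxd4 went from 3.59% to 7.08%, Mnt from 4.3% to 7.96% and Mxd3 from 2.82% to 0.973%, each with groups that did not overlap.

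The ratio of MXD and MNT counts to MYC-family counts puts the repressor and activator transcripts side by side. It was 0.838, 0.948 and 1.09 without Dox, against 11.4, 12.9 and 11.6 with Dox. Transcripts of both kinds were thus about equally counted without Dox, and repressor counts were over 11 times those of the MYC genes in each Dox library. On the log2 scale the ratio differed by 3.65 (p = 0.1 in the same exact permutation test). The ratio of Max to MYC-family counts was 1.08, 1.57 and 1.89 without Dox, against 5.53, 6.99 and 2.77 with Dox. The ratio of MXD and MNT to Max counts was 0.777, 0.605 and 0.577 without Dox, against 2.06, 1.84 and 4.19 with Dox. Max counts therefore exceeded those of its MXD and MNT partners in each library without Dox and were below them in each library with Dox.

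**Figure D3:**
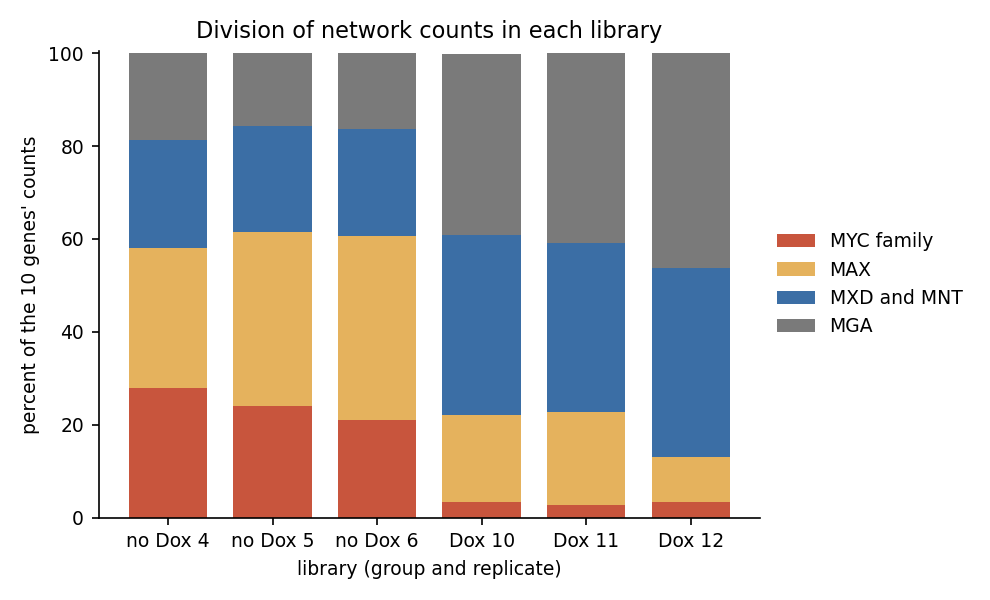
Percent of the counts of the 10 network genes (vertical axis) that fell on the MYC family, MAX, MXD with MNT, and MGA in each of the 6 libraries. The MYC family takes 21% to 27.9% without Dox and 2.84% to 3.50% with Dox.

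MLX is a relative of MAX that pairs with the glucose-sensing factors MLXIP and MLXIPL and with some MXD proteins. Of 5 genes of this branch, 4 were tested, 2 rose and none fell, 50% beside 45.6% of all tested genes and so near the background. Mlxip was at 11.9, 14 and 10.2 CPM without Dox, against 42.5, 29.0 and 32.9 CPM with Dox (log2 fold change 1.53 ± 0.28 SE, edgeR adjusted p = 0.00147). Arrdc4, an arrestin-like target of MLXIP, had 7, 1 and 1 counts without Dox, against 75, 51 and 76 counts with Dox (log2 fold change 4.06 ± 0.84 SE, edgeR adjusted p = 0.0032). Txnip, the best known MLXIP target, did not follow in every library, at 63.3, 42.8 and 49.0 CPM without Dox, against 115, 125 and 10.3 CPM with Dox, replicate 12 being the lowest of all 6 (edgeR adjusted p = 0.411). Without replicate 12 its log2 fold change was 1.2 with an adjusted p of 6.00e-04. Mlx itself had 36, 9 and 16 counts without Dox, against 0, 0 and 11 counts with Dox, a difference short of the threshold (edgeR adjusted p = 0.146), but past it without replicate 12 (0.00783), when both Dox libraries left were at 0, and in limma-voom (0.0474). Mlxipl had 1 count in all libraries together.

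Genes that MYC is known to activate were mostly lower with Dox. Of 53 genes written into the list, in ribosome assembly, nucleotide synthesis, glycolysis, translation and the cell cycle, 52 were tested, 42 fell and 2 rose (edgeR, adjusted p under 0.05), 84.6% beside 45.6% of all tested genes. Their median log2 fold change was -1.64, where that of all tested genes was 0.07. The summed CPM of the list was 16515 to 16882 without Dox and 6562 to 7505 with Dox. The list was written with results of these data known and is a description.

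In the edgeR fit to all libraries, the largest falls in the list were those of Ldha, the lactate dehydrogenase of glycolysis, from 109 ± 9.71 to 7.84 ± 2.59 CPM, and Nme2, a nucleoside diphosphate kinase, from 383 ± 14.3 to 32.7 ± 5.16 CPM (SD, n = 3 each). Their log2 fold changes were -3.78 ± 0.28 and -3.55 ± 0.18 (SE), with edgeR adjusted p-values of 6.10e-06 and 1.51e-06. The 2 that rose were Ccnd2, the gene of cyclin D2, from 285 ± 25.2 to 629 ± 48.4 CPM, and Tfrc, the transferrin receptor, from 236 ± 17.1 to 318 ± 12 CPM (SD, n = 3 each; edgeR adjusted p = 1.84e-04 and 0.0327). Tfrc passed the threshold in 10 of 16 alternative fits. It missed it without replicates 4, 5, 6, 10 or 11, with log2 fold changes of 0.33, 0.40, 0.37, 0.38 and 0.44 (edgeR adjusted p = 0.203, 0.166, 0.138, 0.0838 and 0.0553), which left Ccnd2 as the 1 gene of the list that rose, as did a fit with no low count filter (0.317 for Tfrc). Among those that did not pass were the amino acid transporters Slc7a5 and Slc1a5 and the hexokinase Hk2, with log2 fold changes of 0.23, -0.34 and -0.18. Slc7a5 was at 174, 134 and 22.5 CPM with Dox, and without replicate 12 it passed, with a log2 fold change of 0.70 (edgeR adjusted p = 0.00872).

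Of 11 genes that MYC is known to repress, 10 were tested, 4 rose and 2 fell, 60% beside 45.6% of all tested genes, and the median log2 fold change was 1.22. Clu, which encodes the secreted chaperone clusterin, rose most, from 17.0 ± 0.539 to 427 ± 108 CPM (SD, n = 3 each, log2 fold change 4.65 ± 0.23 SE, edgeR adjusted p = 1.20e-06). Gadd45b, a stress-response gene, rose from 2.92 ± 0.474 to 9.42 ± 1.32 CPM (SD, n = 3 each, edgeR adjusted p = 0.0181), a call lost without replicates 4, 5 or 6 (0.0673, 0.0708 and 0.0719) and without a low count filter (0.0911). Cdkn1b, which encodes the cell cycle inhibitor p27, and Btg2, an antiproliferative gene, fell, with log2 fold changes of -1.56 and -0.76 (edgeR adjusted p = 1.87e-04 and 0.0068). With library size as the only scaling Btg2 did not pass (-0.44, adjusted p = 0.0624). The members of the list thus moved in both directions.

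In the SIN3 corepressor, which MXD proteins and MNT recruit, 15 genes were tested, 4 fell and 2 rose, 40% beside 45.6% of all tested genes. Sap18 and Rbbp4, a small subunit and a histone-binding subunit, fell, with log2 fold changes of -1.69 and -1.6 (edgeR adjusted p = 2.53e-05 and 2.08e-05). Arid4a and Arid4b, DNA-binding subunits, rose by 1.33 and 1.03 (edgeR adjusted p = 3.80e-04 and 0.00192). Neither Sin3a nor Sin3b, the scaffolds, passed the threshold. Sin3a passed it in 3 of 16 alternative fits, without replicate 11 (log2 fold change 0.74, edgeR adjusted p = 0.0131), with library size as the only scaling (0.84, 0.0188) and with a stricter count filter (0.65, 0.0405). Over the alternative fits its log2 fold change ran from -0.13 to 0.84, below 0 once a transcript length trend was removed.

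In the Polycomb complex of MGA, 11 genes were tested, 5 fell and 2 rose, 63.6% beside 45.6% of all tested genes, and the median log2 fold change was -1.09. Tfdp1, the usual partner of E2F proteins, fell from 95 ± 9.35 to 14.2 ± 2.22 CPM (SD, n = 3 each), and its relative Tfdp2 rose from 139 ± 23.2 to 401 ± 26.3 CPM (SD, n = 3 each; edgeR adjusted p = 8.42e-06 and 7.69e-05). Cbx1, which encodes a heterochromatin protein, fell from 803 ± 25.6 to 170 ± 10.5 CPM (SD, n = 3 each, edgeR adjusted p = 3.15e-06), and Yaf2 rose by 0.87 on the log2 scale (edgeR adjusted p = 0.0156). Without replicates 4, 5 or 6 the call for Yaf2 was lost (0.1, 0.0585 and 0.0769), as it was without a low count filter (0.0976). The number that fell was 3 without replicate 4, with library size as the only scaling and at an adjusted p under 0.01. Mga rose while E2f6, the DNA-binding E2F of the same complex, was among those that fell, a call lost without replicate 4 (edgeR adjusted p = 0.0776) and with library size as the only scaling (0.0643).

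Of 20 tested MYC cofactors, 8 fell and 7 rose, 75% beside 45.6% of all tested genes, and the median log2 fold change was 0.09. The number that rose was 3 without replicate 5 or 6, and the number that fell was 5 without replicate 4, 5, 6 or 12. The number that fell was also 5 with upper quartile or library size scaling and with a stricter count filter, and 4 at an adjusted p under 0.01. The largest falls were those of Ruvbl2, a helicase-like ATPase, and Actl6a, an actin-related subunit of chromatin complexes, with log2 fold changes of -2.80 and -2.57 (edgeR adjusted p = 2.54e-04 and 3.50e-04). The acetyltransferase Ep300 and Trrap, the scaffold that MYC binds, rose by 1.63 and 1.41 (edgeR adjusted p = 5.84e-04 and 7.76e-04). Of 20 tested genes of MYC protein turnover, 4 fell and 4 rose, 40% beside 45.6% of all tested genes, and the number that rose was 2 without replicate 5 or 6. It was also 2 without a low count filter and at an adjusted p under 0.01. Skp2, a ubiquitin ligase subunit that marks MYC, fell, with a log2 fold change of -1.77 (edgeR adjusted p = 4.42e-04), whereas the ubiquitin ligase genes Spop and Huwe1 rose by 1.70 and 1.07 (edgeR adjusted p = 2.80e-05 and 0.00355). Fbxw7, the ligase subunit best known for degrading MYC and NOTCH1, did not pass the threshold.

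Markers of cell types moved with these results, and their part in them was not tested. Over all tested genes, 23.6% rose and 22.1% fell. Of 14 T cell markers 12 fell and none rose, with a summed level of 3191 to 3447 CPM without Dox and 289 to 387 CPM with Dox. Their median log2 fold change was -3.10, and those of Tcf7 and Cd3d, the most abundant, were -5.67 and -4.87, beside -3.89 for Myc and -1.72 for Max. All 12 B cell markers rose, from a summed 40.4 to 47.8 CPM to 2404 to 2560 CPM, led in abundance by Ms4a1 and Pax5. Of 12 myeloid markers 8 rose and 1 fell (summed level 293 to 352 CPM without Dox, against 2372 to 2416 CPM with Dox), S100a9 and S100a8 being the most abundant, and Ly6g was at 0 in all libraries without Dox. The myeloid marker that fell was Adgre1 (log2 fold change -1.68, edgeR adjusted p = 0.00786). Csf1r, Cd68 and C1qa did not pass (0.75, 0.03 and 0.72, edgeR adjusted p = 0.074, 0.96 and 0.0732), although Csf1r and C1qa did in 7 and 8 of 16 alternative fits. No T cell or B cell marker was at 0 in a whole group.

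Genes of cycling cells were lower in part. Of 15 tested, 11 fell and none rose, 73.3% beside 45.6% of all tested genes, their median log2 fold change being -0.98, with a summed level of 5305 to 5780 CPM without Dox, against 3446 to 4045 CPM with Dox. The 2 most abundant, Top2a and Mki67, both used to mark proliferation, had log2 fold changes of -0.24 and 0.09 and did not pass the threshold (edgeR adjusted p = 0.176 and 0.698), although without replicate 12 Top2a did (-0.37, adjusted p = 0.0142), and with a transcript length trend removed Mki67 did (-0.62, adjusted p = 0.0175). Among 11 erythroid markers with counts, 5 rose and 2 fell, 63.6% in all (summed level 94217 to 104305 CPM without Dox, against 133387 to 143323 CPM with Dox), with the haemoglobin genes Hba-a1 and Hba-a2 at log2 fold changes of 0.95 and 1.01. The haemoglobin gene Hbb-bs was among the 2 that fell (log2 fold change -1.23, edgeR adjusted p = 4.44e-05), and Hbb-bt had a log2 fold change of -0.24 and did not pass. Of 8 stromal and endothelial markers, among them Col1a2 and Sparc, 3 rose and 1 fell, 50% and near the background (535 to 557 CPM without Dox, against 630 to 832 CPM with Dox).

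**Figure D4:**
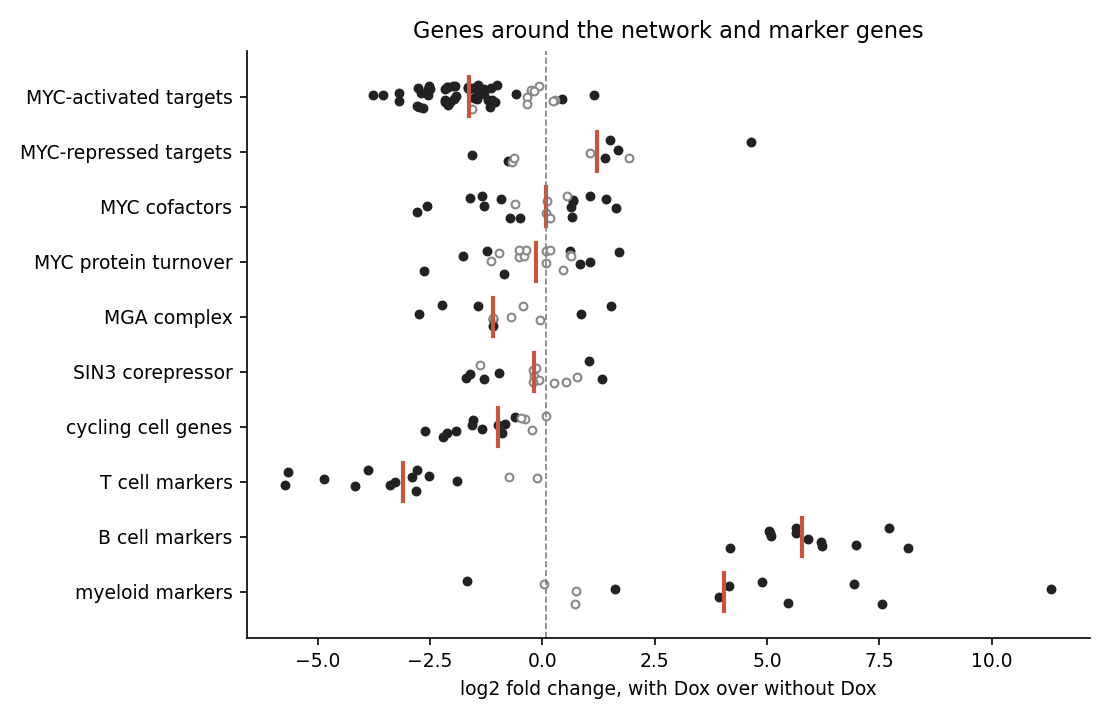
Log2 fold change with Dox over without Dox (horizontal axis) of the tested genes in 6 lists around the network and 4 lists of cycling and cell type genes, with 1 point per gene, filled where the edgeR adjusted p was under 0.05. Coloured bars are list medians and the dashed line is the median of all tested genes at 0.07. MYC-activated targets have a median of -1.64, T cell markers -3.10 and B cell markers 5.78.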

How the data were processed

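The authors deposited 1 table of raw counts per Entrez gene ID for 6 libraries (QuantSeq 3′ mRNA, forward version, per the labels' protocols). The submitters' processing notes name STAR, featureCounts and the build GRCm38, without versions. The annotation, strand setting, treatment of shared reads and any molecular identifiers are not given in the sources used here. Symbols and gene coordinates came from a RefSeq table for GRCm38.p6, which named 39374 of 40808 IDs (96.5%), and strands and exon overlaps from GENCODE M21 on GRCm38. All 6 columns were matched by title.

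The count model was that of edgeR 4.0.16 (R 4.3.3), with filterByExpr (minimum count 10, minimum total 15), TMM scaling, and the quasi-likelihood F-test of 3 libraries with Dox against 3 without, with no covariate. P-values were Benjamini-Hochberg adjusted over 14110 genes, with a threshold of 0.05. SE was the log2 fold change divided by the square root of F. Shares and ratios of counts were compared with exact two-sided permutation tests. Patterns were compared on log2 CPM with a prior count of 2. Counting floors cover counting error only, whereas confidence intervals of log2 fold changes include the spread between libraries. Alternatives were RLE, upper quartile and library size scaling, other low count filters, DESeq2 1.42.0, limma-voom (limma 3.58.1) with and without group weights, removal of a transcript length trend (lengths known for 90.2% of tested genes), omission of mitochondrial, globin and antigen receptor genes, a threshold of 0.01, and leaving out each library.

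All 10 members are named, as are all genes of the MLX branch and the other MYC-family genes with Pvt1. In each other list the 2 genes with the largest change in each direction among those called with groups that did not overlap are named, in marker lists the 2 most abundant, and for Myc and Mxi1 the 3 nearest patterns. Prelid1, Gm10197, Gm42846, Sin3a, Sin3b, E2f6, Fbxw7, Ly6g, Adgre1, Csf1r, Cd68, C1qa, Hbb-bs, Hbb-bt, the sex-linked genes, Slc7a5, Slc1a5 and Hk2 were added to these with their values known. The members and lists were chosen with earlier results of these data known. The marker Ahsp was not found by symbol. A gene that this rule would name is not reported here.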

Additional observations from a re-analysis of the deposited data

How the results depend on the processing

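No paired analysis was possible because the replicate numbers of the libraries with Dox all differ from those without it. Over 135 alternative values for the 8 tested network genes, 122 kept their direction and their side of the threshold. Mxi1 lost its call in 5 of 17 alternatives and Mga in 1 of 17, Mxd3 gained a call in 6 of 16, and Mxd4 reversed to -0.01 without replicate 12 with Dox, the lowest of its values with a library left out (highest 0.59). Myc and Max kept theirs in all 17. The number of network genes that rose was 2 and became 1 at an adjusted p under 0.01, and it ran from 0 to 3 when a library was left out. It was 3 without replicate 11 with Dox, the Dox library with the fewest Mycl counts. Mycl then entered the test through its higher counts in replicates 10 and 12 and was called. With all libraries and no low count filter it was not called (edgeR adjusted p = 0.244). The number of network genes that fell stayed between 2 and 3. Among MYC-activated targets the number that rose was 2, but 1 without a low count filter, 1 at an adjusted p under 0.01, and 1 to 3 when a library was left out. The number that fell ran from 35 to 43 over all alternatives. With library size as the only scaling, the log2 median over all genes shifted by 0.31 and that of these targets was -1.33. The cause of the other changes was not tested. The MYC-family share differed by -22.7 to -19.3 percentage points and the log2 ratio of repressor to MYC-family counts by 3.55 to 3.74 when a library was left out. Of 238 alternative counts for the other lists, 33 moved by over 1.5 times or from 0 to 1. Mycn, Mycl and Mxd3 had fewer than 50 counts in every Dox library, so the relative counting error is largest for these network genes.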
